A study of Mus musculus with 31 samples.

Results

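The genes described here are the core genes of caveolae: the caveolins Cav1 and Cav2, the cavins Cavin1, Cavin2 and Cavin3, and Ehd2. They were chosen by symbol from the Ensembl identifiers of the count table. All 6 were found among its 47729 genes, and all 6 passed the filter on low counts that left 19332 genes for testing. The table held reads counted per gene in 31 RNA-seq libraries of nerve tissue cut by laser microdissection from frozen sections of mouse embryos. All embryos carried the Sox10:H2BVenus BAC transgene, which makes Sox10+ glia fluoresce. At E16.5, 4 libraries came from olfactory nerve (cut from the lamina propria beneath the olfactory epithelium), 4 from the outer olfactory nerve layer (ONL, the part farthest from the olfactory bulb), 4 from the inner ONL (closest to the bulb) and 3 from trigeminal nerve branches nearby, with a different embryo for each library of a tissue. The study cut these tissues from shared sections, but no label ties a library to its embryo. Earlier tissue was olfactory nerve at E11.5 (4 libraries) and olfactory nerve and ONL at E13.5 (7 and 5). Olfactory nerve and ONL contain olfactory ensheathing cells (OECs), and trigeminal nerve contains Schwann cells, but each piece held every cell present in the cut area.

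Caveolae are small flask-shaped pits of the plasma membrane, abundant in endothelial cells, smooth muscle, adipocytes and fibroblasts. Cav1 is the principal scaffold protein outside striated muscle, and Cav2 joins it in mixed oligomers. The cavins form the coat on the cytoplasmic side: Cavin1 is needed for the pits to form, Cavin2 helps shape the curved membrane, and Cavin3 binds Cavin1 and is linked to signalling and trafficking. Ehd2 is an ATPase that sits at the neck and holds the pit at the surface. In peripheral nerve, Cav1 is known from Schwann cells as well as from vessels and connective tissue.

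The labels of the early libraries went against the group means that the study tabulated. Fitting those means as mixtures of the 31 libraries gave back the E16.5 nerve, inner ONL and trigeminal libraries under their own label (outer ONL set the scale and was not checked), but 10 of the 16 earlier ones under another. By those means, the E13.5 ONL group is made of E11.5 olfactory nerve replicates 1-4 and E13.5 olfactory nerve replicate 1, named here as in the labels. Likewise, E13.5 olfactory nerve replicates 2-7 and E13.5 ONL replicate 1 make up the E13.5 olfactory nerve group, and E13.5 ONL replicates 2-5 make up the E11.5 olfactory nerve group. The summed level of 6 olfactory bulb neuron markers was 703-978 counts per 1000000 (CPM, scaled by TMM) in the 5 libraries of E13.5 ONL grouped in this way, against 170-288 in E13.5 nerve and 107-186 in E11.5 nerve. Grouped by label, the same sum was 703-978 in E11.5 olfactory nerve and 107-186 in E13.5 ONL. At E16.5, Sox10, the gene whose reporter marked the tissue, had means of 126 CPM in olfactory nerve, 646 in outer ONL, 550 in inner ONL and 335 in trigeminal nerve. The grouping by tabulated means is used below, with the calls among the 6 genes by label beside each early comparison. Counts of marker and other listed genes, and ratios to Cav1, are given for early libraries by the tabulated grouping only.

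Cav2 and Cav1 are neighbours on the plus strand of chromosome 6 (GRCm38, the mm10 assembly), Cav2 (ENSMUSG00000000058) at 17281185-17289115 and Cav1 (ENSMUSG00000007655) at 17306335-17341452, with 17219 bases between them. The other members lie apart: Cavin1 on chromosome 11 (100956733-100970887, minus strand), Cavin2 on chromosome 1 (51289126-51302960, plus strand), Cavin3 on chromosome 7 (105480083-105482300, minus strand) and Ehd2 on chromosome 7 (15946958-15967567, minus strand). Counts of Cavin3 carry a doubt, because the annotated gene Gm45667 on the opposite strand shares 374 of its exon bases and strand-aware counting was not stated.

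The 250 bases before the annotated start are shown for the 2 caveolins, which lie side by side, and for Cavin2. The level of Cavin2 rose from E16.5 nerve to inner ONL where the other members did not. Windows are from RefSeq (GRCm38.p6, 5′ to 3′ on the gene's strand, and for Cav1 the first of its entries). Capitals mark the GC box GGGCGG, searched on both strands and so read as CCGCCC where it lies on the other one.
Cav1 promoter, chr6:17306085-17306334, plus strand: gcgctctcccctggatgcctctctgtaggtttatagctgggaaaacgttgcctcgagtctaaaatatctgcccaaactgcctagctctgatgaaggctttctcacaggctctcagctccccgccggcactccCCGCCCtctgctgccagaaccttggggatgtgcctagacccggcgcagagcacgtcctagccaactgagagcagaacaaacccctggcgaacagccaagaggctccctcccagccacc
Cav2 promoter, chr6:17280935-17281184, plus strand: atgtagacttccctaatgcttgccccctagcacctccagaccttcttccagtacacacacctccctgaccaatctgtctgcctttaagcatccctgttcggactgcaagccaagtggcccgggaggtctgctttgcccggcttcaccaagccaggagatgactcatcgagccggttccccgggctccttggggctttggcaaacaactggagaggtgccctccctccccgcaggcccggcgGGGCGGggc
Cavin2 promoter, chr1:51288876-51289125, plus strand: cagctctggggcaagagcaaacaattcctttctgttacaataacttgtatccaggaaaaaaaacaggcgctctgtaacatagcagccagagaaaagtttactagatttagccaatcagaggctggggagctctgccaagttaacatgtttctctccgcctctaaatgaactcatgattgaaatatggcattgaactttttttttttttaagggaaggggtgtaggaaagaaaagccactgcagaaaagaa
The Cav1 and Cav2 windows each held 1 GC box, and the Cavin2 window held none. The windows of Cavin1 and Ehd2, which are not shown, also held 1, and that of the other Cav1 entry held none. This motif was found in 32.9% of the 250-base windows of 27025 genes. G and C made up 59.6% of the Cav1 window, 62% of the Cav2 window and 40.4% of the Cavin2 window, and the median over all windows was 52%. The CCAAT box (CCAAT) was present in the Cav2 and Cavin2 windows, in those of Cavin1 and Ehd2, and in 34.5% of all windows. The TATA box letters TATAAA, also searched on both strands, occurred once in the Cav1 window, on the minus strand as TTTATA, and in 13% of all windows.

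At E16.5 all 6 genes were detected in every library of every tissue, with the lowest count, 163, for Ehd2 in an inner ONL library. Adjusted for gene length, the mean level of Cav1 stood first in every E16.5 tissue, with 96.6 ± 37.3 CPM per kilobase of exon in olfactory nerve, 101 ± 32.6 in outer ONL, 51.4 ± 10.2 in inner ONL and 249 ± 57.1 in trigeminal nerve (SD, n = 4, 4, 4 and 3). Cavin3 came next in 3 of the 4 tissues, with 40.5 ± 16.2 CPM per kilobase in olfactory nerve, 23.9 ± 9.71 in outer ONL and 126 ± 52.7 in trigeminal nerve. In inner ONL the second place was held by Cavin2, at 39.4 ± 4.07 CPM per kilobase, with Cavin3 at 16.1 ± 5.11. Ehd2 was lowest in both ONL tissues, at 4.87 ± 0.318 and 2.86 ± 0.336 CPM per kilobase.

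**Figure D1:**
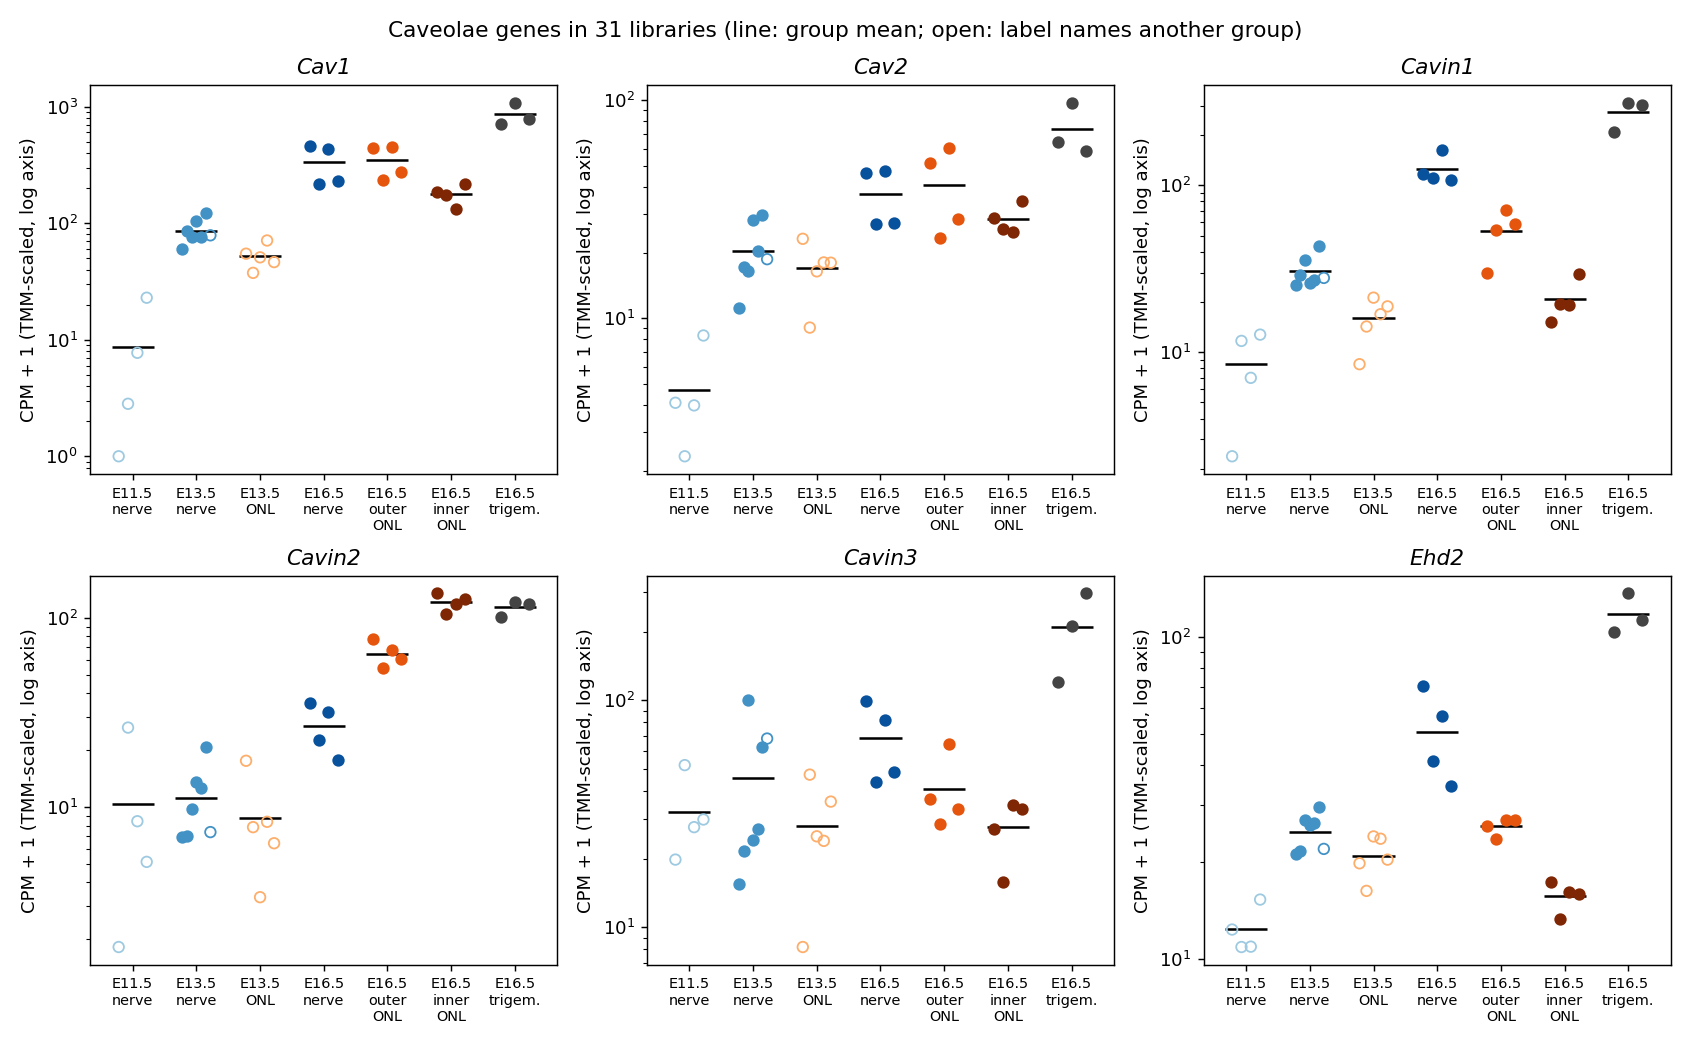
Level of each caveolae gene in 31 libraries (CPM + 1, TMM-scaled, log axis), by group; each point is 1 library, the line is the group mean, and open points are libraries whose label names another group. Trigeminal nerve is highest for every gene but Cavin2, which has 120.4 CPM in inner ONL and 113 in trigeminal nerve, and Cav1 spreads from 0 to 21.9 CPM in E11.5 nerve.

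The first question was how outer ONL tissue, rich in ONL-OECs, differed from olfactory nerve at E16.5. Cavin1 and Ehd2 were lower in outer ONL, Cavin2 was higher in every outer ONL library without passing the test in the fit of all libraries, and neither caveolin passed it. Cavin1, the coat protein, had 116, 110.1, 162 and 106 CPM in olfactory nerve replicates 1-4 and 28.6, 52.6, 70.4 and 57.6 CPM in outer ONL replicates 1-4. Every outer ONL library lay below every nerve library, and the log2 fold change was -1.24 (standard error, SE, 0.36, edgeR quasi-likelihood test, adjusted p = 0.0125). The call was lost without outer ONL replicate 1 (adjusted p = 0.0567) and with the early libraries grouped by label (adjusted p = 0.0606). Ehd2, the neck ATPase, had 69.6, 40.1, 55.8 and 33.6 CPM in olfactory nerve and 24.9, 22.6, 26.1 and 26.0 CPM in outer ONL. The outer ONL libraries lay close together and below all nerve libraries, with a log2 fold change of -0.997 (SE 0.19, adjusted p = 0.000163). Because these are bulk samples, fewer cells of a type and less RNA per cell cannot be told apart from the counts, here and in all comparisons that follow. By staining of RNA in sections (in situ hybridization), the paper saw Cavin1 in mesenchyme around the ONL or around nerve fascicles. The paper gave Cavin1 as an example of a gene expressed in adjacent tissue and not in glia.

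Cav1, the scaffold, had 456, 215, 431 and 229 CPM in olfactory nerve replicates 1-4 and 438, 235, 453 and 271 CPM in outer ONL replicates 1-4. Replicates 1 and 3 were high and replicates 2 and 4 low in both tissues, so the spread within a tissue was about as wide as the whole range, and the log2 fold change was 0.07 (SE 0.58, adjusted p = 0.955). Cav2 was also high in replicates 1 and 3 and low in replicates 2 and 4, with 45.3, 26.1, 46.3 and 26.4 CPM in olfactory nerve and 50.2, 22.4, 59.3 and 27.6 CPM in outer ONL (log2 fold change 0.15, SE 0.37, adjusted p = 0.839).

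Cavin2, which shapes the curved membrane, went the other way from Cavin1. It had 34.5, 21.7, 30.7 and 16.7 CPM in olfactory nerve replicates 1-4 and 76.3, 53.3, 66.7 and 59.7 CPM in outer ONL. No libraries overlapped, and the log2 fold change was 1.31 (SE 0.53), but adjusted p was 0.0786 in the fit of all 31 libraries. Cavin3 had 42.6-98.6 CPM in olfactory nerve and 27.5-63.3 in outer ONL, with overlap and a log2 fold change of -0.76 (SE 0.49, adjusted p = 0.297). Like the caveolins, Cavin2 and Cavin3 were higher in replicates 1 and 3 than in replicates 2 and 4 of each tissue.

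In this comparison 2 of the 6 genes were called, both lower in outer ONL, where 22% of all genes tested were called and 11.8% were called lower. With the early libraries grouped by label, Ehd2 alone was called, beside 16.1% of genes. Same-numbered nerve and outer ONL libraries deviated together from their group means, so the replicate numbers were taken to pair them. This pairing was read from the same data and may not follow embryos. Nerve replicate 4 deviated more with outer ONL replicate 2 (r = 0.364) than with outer ONL replicate 4 (r = 0.230). In a fit of the 2 tissues alone with replicate number as a block, 4 of the 6 were called, with 31.4% of 16239 genes called. In that fit Cav1 was at 0.0761 (SE 0.0945, adjusted p = 0.586) and Cav2 at 0.0703 (SE 0.125, adjusted p = 0.712), with smaller errors than without the block. The additional calls were Cavin2, at a log2 fold change of 1.33 (SE 0.14, adjusted p = 0.000498), and Cavin3, at -0.77 (SE 0.18, adjusted p = 0.0134). Cavin2 was also called without the block, at 1.29 in the 2 tissues alone (SE 0.22, adjusted p = 0.00125). With the E16.5 libraries fitted by themselves it was at 1.23 (SE 0.18, adjusted p = 9.31e-05). The median log2 fold change of the 6 genes was -0.35 and that of all genes 0.01.

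**Figure D2:**
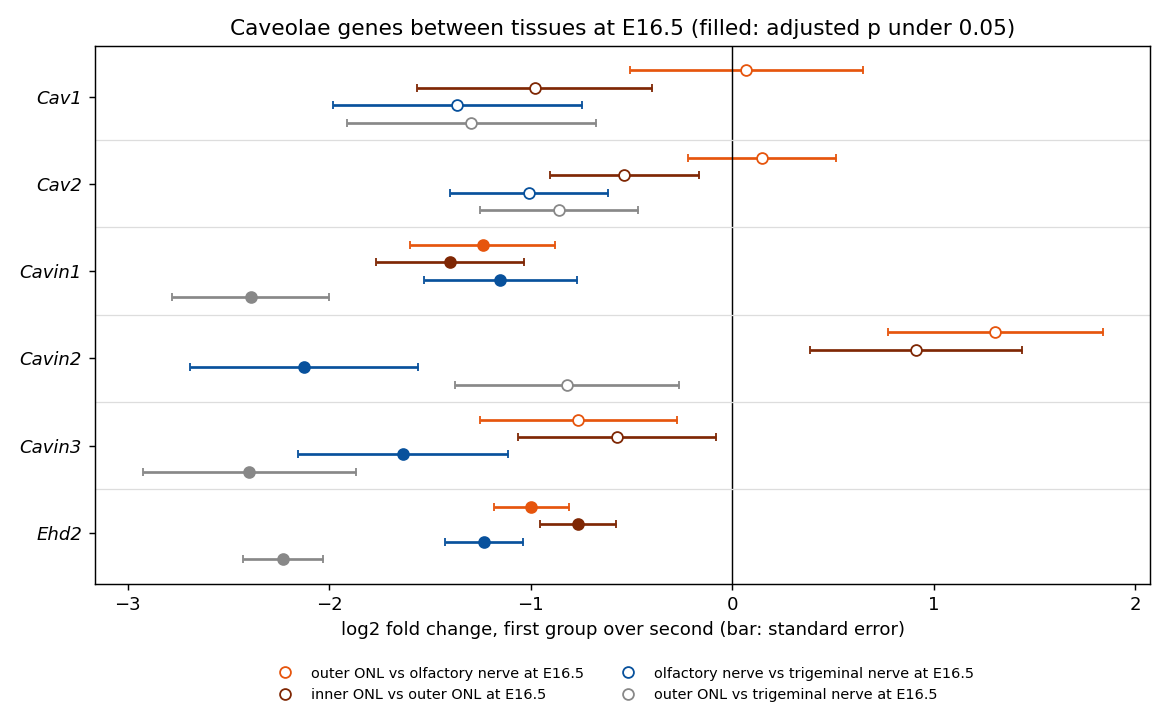
Log2 fold change of each caveolae gene (x axis, first tissue over second) in 4 comparisons at E16.5, with bars of 1 standard error and filled points where adjusted p was under 0.05. Cavin1 and Ehd2 are filled and left of 0 in all 4 comparisons, and Cavin2 alone lies right of 0 in both ONL comparisons, at 1.31 and 0.91, without passing the threshold.

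Inner ONL against outer ONL asked whether the 2 cuts of the layer differed. The paper reported olfactory bulb tissue in the inner cut. It also reported that the 2 cuts did not separate inner from outer OECs. Cavin1 fell further, to 14.1, 18.4, 18.3 and 28.4 CPM in inner ONL replicates 1-4, with a log2 fold change of -1.40 against outer ONL (SE 0.37, adjusted p = 0.00797). Its highest inner ONL library, at 28.4 CPM, was just under the lowest outer ONL library, at 28.6, and with the early libraries grouped by label adjusted p was 0.0542, which left 1 of 6 called beside 8.58% of genes. Ehd2 had 16.3, 12.3, 15.2 and 14.9 CPM in inner ONL, below all outer ONL libraries, with a log2 fold change of -0.76 (SE 0.19, adjusted p = 0.00440). In all, 2 of 6 genes were called, both lower, where 14.1% of genes were called and 5.94% were called lower.

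Cavin2 reached 134, 105, 118 and 125 CPM in inner ONL, above all 4 outer ONL and all 4 nerve libraries. Against outer ONL the log2 fold change was 0.91 (SE 0.52, adjusted p = 0.311), and in a fit of the 2 tissues alone it was 0.91 with an SE of 0.15 (adjusted p = 0.00133). Against olfactory nerve it was 2.22, a 4.65-fold higher level (SE 0.55, adjusted p = 0.00174). Inner ONL against nerve had 4 of 6 genes called, where 35.5% of genes were called, 17.7% of them higher and 17.8% lower as shares of all genes tested. Cavin2 was higher, and Cavin1 (log2 fold change -2.64, SE 0.38, adjusted p = 1.88e-06), Cavin3 (-1.33, SE 0.50, adjusted p = 0.0351) and Ehd2 (-1.76, SE 0.19, adjusted p = 1.24e-08) were lower. The Cavin3 call was lost in the fit with early libraries grouped by label (adjusted p = 0.0507) and without nerve replicate 1 or 3 or inner ONL replicate 1 or 2 (adjusted p from 0.0614 to 0.113). Cav1 had 184, 175, 132 and 217.5 CPM in inner ONL, below all outer ONL libraries and overlapping with nerve at the top only. Its log2 fold change was -0.98 against outer ONL (SE 0.58, adjusted p = 0.334) and -0.91 against nerve (SE 0.58, adjusted p = 0.243). In fits of the 2 tissues alone Cav1 was called in both, at -0.98 against outer ONL (SE 0.22, adjusted p = 0.00894) and -0.97 against nerve (SE 0.24, adjusted p = 0.00548).

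Trigeminal nerve, where Schwann cells take the place of OECs, had the highest mean level of 5 of the 6 genes among the 7 groups. Cav1 had 712, 1080 and 777 CPM in trigeminal nerve replicates 1-3, above every olfactory library. Olfactory nerve against trigeminal nerve gave a log2 fold change of -1.36 (SE 0.62, adjusted p = 0.114), which did not pass the test although the libraries did not overlap. With the E16.5 libraries fitted by themselves Cav1 was called, at -1.31 (adjusted p = 0.00183), and so was Cav2, at -0.95 (adjusted p = 0.0249), which in the fit of all libraries was at -1.01 (adjusted p = 0.0614). Cavin1 had 209, 312 and 302.5 CPM, and its log2 fold change in olfactory nerve was -1.15 (SE 0.38, adjusted p = 0.0264). This call was lost with library size scaling alone (adjusted p = 0.0954), with early libraries grouped by label (0.0954), and when olfactory nerve library 1, 2 or 4 or trigeminal library 2 or 3 was left out (0.0568 to 0.0950). Ehd2 had 103, 136 and 112 CPM, with a log2 fold change of -1.23 in olfactory nerve (SE 0.20, adjusted p = 1.69e-05).

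Cavin2 had 100.4, 121 and 118 CPM in trigeminal nerve, with a log2 fold change of -2.13 in olfactory nerve, 0.229 of the trigeminal level (SE 0.57, adjusted p = 0.00597). Cavin3 ranged more widely, at 120.1, 211 and 295 CPM, with a log2 fold change of -1.63 (SE 0.52, adjusted p = 0.0211), and its call was lost when olfactory nerve library 2 or 4 or trigeminal library 3 was left out (adjusted p = 0.0640, 0.0732 and 0.119). Olfactory nerve against trigeminal nerve had 4 of 6 genes called, all lower in olfactory nerve, where 23.6% of genes were called and 10.6% were called lower. Leaving out any 1 of these last 3 libraries left 2 of 6 called.

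Outer ONL against trigeminal nerve had 3 of 6 genes called, all lower in outer ONL, where 25.8% of genes were called and 12.3% were called lower. Cavin1, Cavin3 and Ehd2 had log2 fold changes of -2.39, -2.40 and -2.23 (SEs 0.39, 0.53 and 0.20, adjusted p = 1.94e-05, 0.000884 and 6.45e-10). With the E16.5 libraries fitted by themselves, all 6 were called, where 31.3% of 17800 genes were, with Cav1 at -1.32 (adjusted p = 0.00136), Cav2 at -0.89 (0.0299) and Cavin2 at -0.84 (0.00276). Inner ONL against trigeminal nerve had 5 of 6 genes called, where 38.1% of genes were called and 19% were called lower. The largest of these changes was in Cavin1, at -3.79, which is 0.0723 of the trigeminal level (SE 0.41, adjusted p = 8.48e-09). The exception was Cavin2, with 105-134 CPM in inner ONL and 100.4-121 in trigeminal nerve and a log2 fold change of 0.09 (SE 0.56, adjusted p = 0.925). The Cav2 call of inner ONL against trigeminal nerve was lost without trigeminal nerve replicate 2 (adjusted p = 0.0518). These comparisons share their trigeminal libraries.

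The members also differed from each other in how they changed, as seen in the ratio of each gene's count to that of Cav1 in the same library, which cancels the scaling between libraries. Average ratios here and below are geometric means over libraries. The differences were tested by two-sided exact permutation of libraries, 20 tests in all, with 0.0286 the smallest p that 4 against 4 libraries can give. Cav2 per Cav1 averaged 0.111 in olfactory nerve and 0.110 in outer ONL, a log2 difference of -0.01 (exact p = 0.971). In inner ONL it was 0.157, higher by 0.50 on the log2 scale than in nerve (exact p = 0.0286, adjusted p = 0.0476).

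Cavin2 per Cav1 averaged 0.0794 in olfactory nerve, 0.189 in outer ONL and 0.688 in inner ONL. The ranges did not overlap, at 0.0713-0.101, 0.147-0.226 and 0.574-0.892. The log2 differences were 1.25 for outer ONL against nerve and 1.86 for inner against outer ONL (both exact p = 0.0286, adjusted p = 0.0476). Cavin1 per Cav1 went down in outer ONL, from 0.388 to 0.148, a log2 difference of -1.39, and Ehd2 per Cav1 from 0.153 to 0.0743, a difference of -1.04 (both exact p = 0.0286, adjusted p = 0.0476). Between inner and outer ONL, the Cavin1 and Ehd2 ratios differed by -0.43 and 0.17 (exact p = 0.343 and 0.514). Trigeminal nerve was not tested. Its ratios were 0.0838 for Cav2, 0.321 for Cavin1, 0.134 for Cavin2, 0.232 for Cavin3 and 0.138 for Ehd2. Of the 20 tests, 12 passed at adjusted p under 0.05, and when any 1 E16.5 olfactory nerve library was left out 0 passed. At 20 tests, a p of 0.0286 passes the adjustment only where at least 12 tests reach it or a smaller one.

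**Figure D3:**
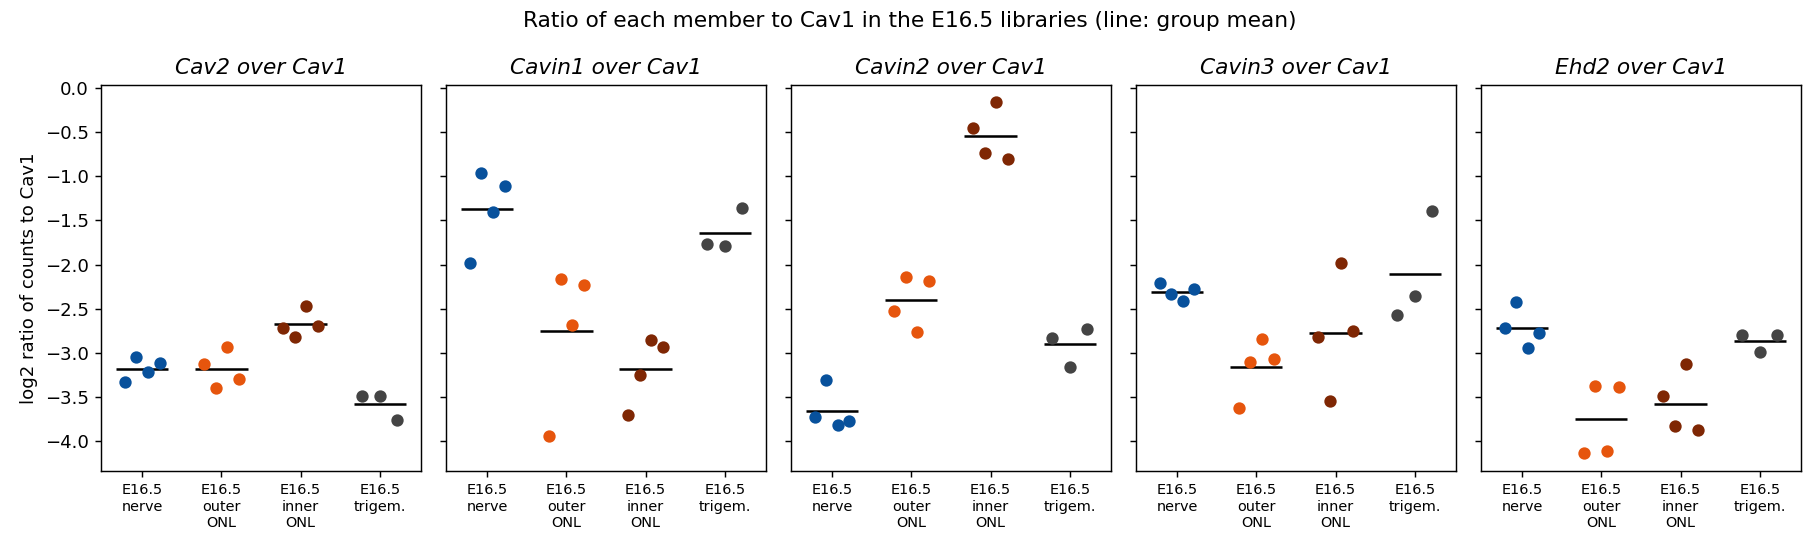
Log2 ratio of the count of each member to the count of Cav1 in the 15 E16.5 libraries, by tissue; each point is 1 library and the line is the group mean. The Cavin2 points climb from a mean of -3.65 in olfactory nerve to -2.40 in outer ONL and -0.54 in inner ONL, and the Cavin1 points fall from -1.37 to -2.75 and -3.18.

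Markers of other cell types also differed between the tissues. At E16.5 the summed level of 9 mural cell markers was 863-3290 CPM in olfactory nerve, 308-570 in outer ONL, 206-285 in inner ONL and 1132-1957 in trigeminal nerve. Of these markers, 6 of 9 were lower in outer ONL than in nerve, with Acta2, smooth muscle actin, at 1169 and 57.7 CPM. The sum of 10 markers of fibroblastic mesenchyme was 11450-18830, 7061-13030, 1673-3028 and 27590-32070 CPM in the same order, with 5 of 10 lower in outer ONL than in nerve. The sum of 12 endothelial markers was 727-1340, 648-1016, 393-583 and 863-1418 CPM, with 4 of 12 lower in outer ONL than in nerve. The order of the tissue means of Cavin1 and Ehd2, from trigeminal nerve through olfactory nerve and outer ONL to inner ONL, was that of the fibroblastic and of the endothelial sum, and the mural sum had the first 2 tissues the other way round. Their part in the result was not tested.

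The Cavin2 order did not follow those sums, since its level rose from olfactory nerve to inner ONL while the endothelial, mural and fibroblastic sums had their lowest ranges in inner ONL. Cavin2 was 2.098-2.98% of the endothelial sum in olfactory nerve, 6.56-10.2% in outer ONL and 21.4-31.4% in inner ONL. In trigeminal nerve it was 8.51-11.6%, although its level of 100.4-121 CPM there overlapped with the 105-134 CPM of inner ONL. The sum of 6 olfactory bulb neuron markers was 159-211 CPM in olfactory nerve, 9.21-145 in outer ONL and 377-782 in inner ONL, and 6 of 6 were higher in inner than in outer ONL. In trigeminal nerve the bulb neuron sum was 184-213 CPM. The part of these cells in the Cavin2 result was not tested. The sum of 7 macrophage markers ran with the mural sum, at 284-591 CPM in nerve and 142-176 in inner ONL, and the sum of 7 olfactory neuron markers was 2148-3984 CPM in inner ONL and 507-1354 in outer ONL. Of 8 skeletal muscle markers, the sum was 158-231 CPM in trigeminal nerve and 13.3-27.7 in the other E16.5 libraries.

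Across stages the question was when these genes came up in the olfactory nerve. The E11.5 pieces came from fewer embryos (4 pieces from 2), as did those at E13.5 (7 nerve and 5 ONL pieces, each from 4 embryos), and the labels do not tie pieces to embryos, so p-values over libraries are too small in every comparison with these groups. At E11.5 Cav1, Cav2, Cavin1 and Ehd2 had their lowest means of the 7 groups, and Cavin2 and Cavin3 did not. Cav1 counts were 0, 67, 162 and 678 in the 4 E11.5 libraries (labelled E13.5 ONL replicates 2-5), or 0, 1.82, 6.72 and 21.9 CPM. Cavin2 was spread in another order, with 0.821, 25.4, 7.43 and 4.14 CPM, while Ehd2 kept to 9.89-14.3 CPM. Both extremes were single libraries, and the endothelial marker sum in these 4 libraries ran from 49.3 to 261 CPM.

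From E11.5 to E13.5, 4 of 6 genes were higher in olfactory nerve, by edgeR and by DESeq2, and the other 2 did not pass the test, where 36.6% of genes were called and 20.2% were called higher. At E13.5 Cav1 ranged over 59.1-122 CPM with a median of 77.6, above every E11.5 library, at a log2 fold change of 3.49 (SE 0.62, adjusted p = 5.26e-05). Cav2 ranged over 10.2-28.6 CPM with a median of 17.7, against 1.33-7.34 at E11.5 (log2 fold change 2.38, SE 0.37, adjusted p = 9.55e-06). Cavin1 ranged over 24.2-42.0 CPM with a median of 26.9, against 1.38-11.7 (log2 fold change 1.99, SE 0.35, adjusted p = 5.21e-05), and Ehd2 over 20.2-28.7 with a median of 25.0 (log2 fold change 1.07, SE 0.17, adjusted p = 1.31e-05). Cavin2 and Cavin3 overlapped between the stages, at log2 fold changes of 0.12 and 0.51 (adjusted p = 0.877 and 0.382). Without the library labelled E13.5 ONL replicate 3, the one with the high Cavin2 value, Cavin2 was at 1.34 (adjusted p = 0.0243) and 5 of 6 genes were called. Grouped by label, 0 of 6 genes were called between E13.5 and E11.5 nerve by the edgeR test, where 17.5% of genes were called, with 1 of 6, Cavin1, at an unadjusted p under 0.05 and Cav1 at 0.62 (adjusted p = 0.612). Markers of other cells moved with the members here, with 11 of 12 endothelial, 6 of 9 mural and 9 of 10 fibroblastic markers higher at E13.5 than at E11.5. The other fibroblastic marker, 1 of 10, was lower, and the part of these cells in the result was not tested.

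From E13.5 to E16.5, 5 of 6 genes rose in olfactory nerve, where 28.8% of genes were called and 15.2% were called higher. Cavin1 and Cav1 had the largest changes, with log2 fold changes of 2.06 (SE 0.31, adjusted p = 1.06e-05) and 1.97 (SE 0.50, adjusted p = 0.00361), or 4.18-fold and 3.90-fold. Ehd2 rose 2.08-fold (log2 fold change 1.06, SE 0.16, adjusted p = 1.12e-05). Cav2 and Cavin2 changed by 0.90 (SE 0.32, adjusted p = 0.0348) and 1.34 (SE 0.46, adjusted p = 0.0306) on the log2 scale with libraries that overlapped, and both calls were lost when any 1 of 5 libraries was left out: E16.5 nerve replicate 1 or 3, or those labelled E13.5 nerve replicate 2 or 3 or E13.5 ONL replicate 1. In each of these 5 fits 3 of 6 genes were called. Cavin3 had 14.6-99.0 CPM at E13.5, with a median of 26.0, and 42.6-98.6 at E16.5 (log2 fold change 0.59, SE 0.42, adjusted p = 0.317). Cav2 and Ehd2 rose less than Cav1: their ratios to Cav1 fell by 0.99 and 0.90 on the log2 scale (both exact p = 0.00303, the smallest 4 against 7 libraries can give, adjusted p = 0.0303). By label, 4 of 6 genes were called from E13.5 to E16.5, beside 25.1% of genes, with Cav2 at 0.91 (adjusted p = 0.111) the one lost. Of the marker lists, 6 of 9 mural, 7 of 10 fibroblastic, 5 of 12 endothelial and 6 of 7 macrophage genes rose over the same interval, and 2 of the 10 fibroblastic genes fell. The part of these cells in the result was not tested.

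Within the ONL, 4 of 6 genes were higher in outer ONL at E16.5 than in ONL at E13.5, where 41.9% of genes were called and 21.9% were called higher. Cavin2 changed most, from 16.6, 6.84, 2.34, 7.37 and 5.45 CPM at E13.5 to 53.3-76.3 CPM, a log2 fold change of 3.17 (SE 0.54, adjusted p = 2.22e-05). Cav1 went from 53.7, 36.4, 49.9, 70.0 and 45.3 CPM to 235-453, a log2 fold change of 2.78 (SE 0.57, adjusted p = 0.000224). Cav2 and Cavin1 changed by 1.34 and 1.78 (SEs 0.36 and 0.35, adjusted p = 0.00289 and 0.000127). Ehd2, by contrast, had 15.3-23.0 CPM at E13.5 and 22.6-26.1 at E16.5, at 0.33 (SE 0.18, adjusted p = 0.137). By label, 5 of 6 genes were called, beside 35.2% of genes, with Ehd2 at 0.91 (adjusted p = 0.00101). The E13.5 pieces were cut from the whole layer and the E16.5 pieces from its outer part. Of the marker lists, 9 of 9 mural, 6 of 10 fibroblastic and 5 of 12 endothelial genes were higher at E16.5, with 1 fibroblastic and 1 endothelial gene lower. Of the olfactory bulb neuron markers 5 of 6 were lower, their sum going from 703-978 to 9.21-145 CPM. Their part was not tested.

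**Figure D4:**
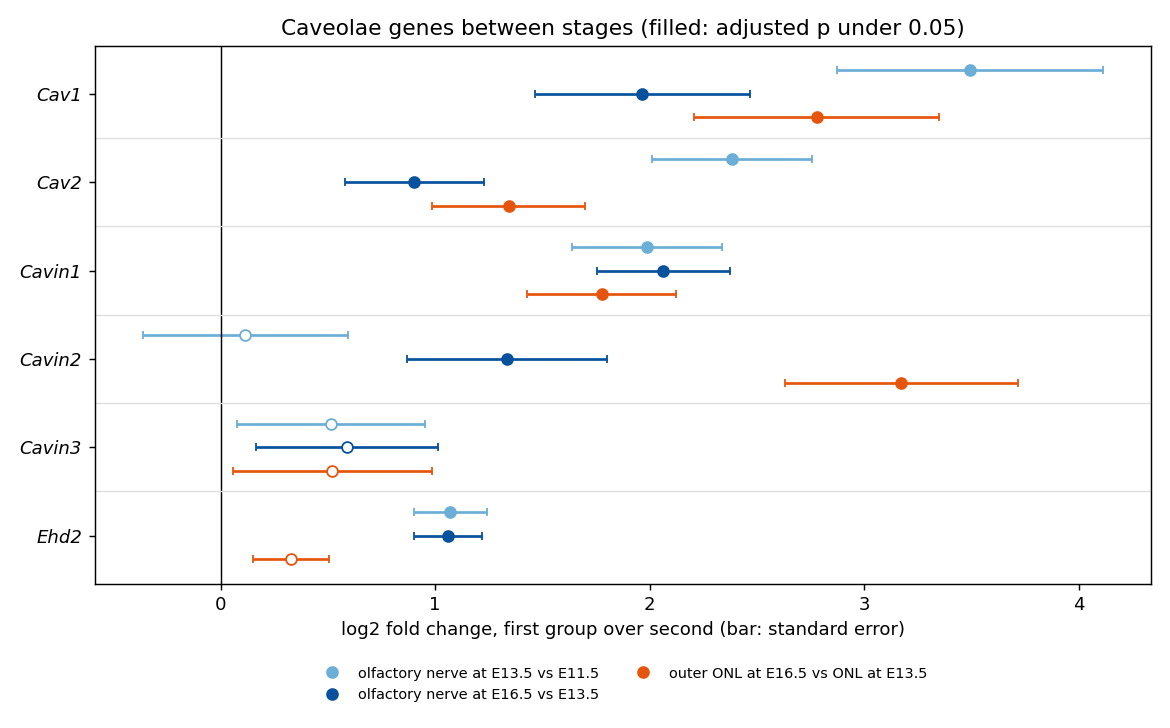
Log2 fold change of each caveolae gene (x axis, later stage over earlier) in 3 comparisons between stages, with bars of 1 standard error and filled points where adjusted p was under 0.05. Cav1 and Cavin1 are filled in all 3, Cavin3 is open in all 3, and the largest value is that of Cav1 from E11.5 to E13.5, at 3.49.

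At E13.5, ONL and olfactory nerve differed in 1 of 6 genes, where 31.5% of genes were called and 16.1% were called lower. Cavin1 had 7.47, 13.2, 20.2, 15.9 and 17.8 CPM in ONL, below all 7 nerve libraries, at a log2 fold change of -0.95 (SE 0.31, adjusted p = 0.0189), and the call was lost without the library labelled E11.5 olfactory nerve replicate 1 (adjusted p = 0.0570). By label, 3 of 6 were called, beside 17.7% of genes, all lower in ONL: Cav2 (-1.60, adjusted p = 0.0121), Cavin1 (-1.34, adjusted p = 0.0196) and Ehd2 (-0.84, adjusted p = 0.00376). Mural markers were also lower in E13.5 ONL than in nerve in 7 of 9, and their part was not tested. The ONL minus nerve difference itself changed between E13.5 and E16.5 in 1 of 6 genes, where 12.3% of genes were called and 6.75% were called lower. For Ehd2 it went from -0.27 at E13.5 to -0.997 at E16.5, a change of -0.73 (SE 0.24, adjusted p = 0.0426), which was lost by label (-0.16, adjusted p = 0.776). For Cavin2 it went from -0.53 to 1.31, a change of 1.84 (SE 0.72, adjusted p = 0.0961).

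Over all 7 groups, the order of the mean levels differed from gene to gene. For Cav1, neighbours in the order overlapped between outer ONL and nerve at E16.5, between E16.5 nerve and inner ONL, and between E13.5 nerve and ONL, and the other steps were clear of each other. For Cav2, the single step without overlap was the last, between E13.5 ONL (8.07-22.1 CPM) and E11.5 nerve. For Cavin1 the 2 upper steps were clear, trigeminal nerve over E16.5 nerve and that over outer ONL, and the groups from outer ONL down to E11.5 nerve overlapped with their neighbours. For Cavin2, inner ONL and trigeminal nerve overlapped at the top, outer ONL stood alone, and E16.5 nerve and the 3 early groups each overlapped with the next. For Cavin3, trigeminal nerve stood alone and the other 6 groups each overlapped with the next. For Ehd2, trigeminal nerve and E16.5 nerve stood alone, and each of the lower groups, from outer ONL to E11.5 nerve, overlapped with the next.

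The 6 genes were not one block across libraries. At E16.5 (n = 15 libraries), Spearman's rho of CPM was 0.96 for Cavin1 with Ehd2, 0.90 for Cavin1 with Cavin3 and 0.84 for Cav1 with Cav2, while Cavin2 had -0.06 with Cav1 and -0.33 with Cavin1. These are descriptions of 4 tissues, since the points fall into tissue groups. After removal of the group means, Pearson's r of log2 CPM was 0.66 for Cav1 with Cav2 and 0.67 for Cav2 with Ehd2. Among 12218 genes compared over the 31 libraries, the genes whose CPM ranked most like Cav1 were Stim1 (rho 0.97), Sgcb (0.96) and Mal (0.96). Most like Cav2 were Cast, Tgfbr2 and Adam17 (0.95, 0.95 and 0.94), and most like Cavin1 were Rarres2, Col6a2 and C1qtnf6 (0.97, 0.96 and 0.96). Ehd2 was ranked most like Kdelr3, Tm4sf1 and Anxa2 (0.95, 0.95 and 0.94). Cavin2 and Cavin3 had looser matches, with Pgf, Dhrs2 and Hspa2 (0.87, 0.87 and 0.87) and Sox18, Srd5a3 and Phlda3 (0.87, 0.87 and 0.86). These values share stage, tissue and library depth.

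Other genes tied to caveolae went the same way as the members in some comparisons and not in others. A list of 11 included the muscle caveolin Cav3 and genes that bend or cut the membrane or link it to actin. Of the 11, 4 were higher and 2 lower in outer ONL than in olfactory nerve, where 22% of all genes were called. Pacsin2, a membrane-bending F-BAR protein, had 168 ± 27.1 CPM in nerve and 325 ± 71.7 in outer ONL (SD, n = 4 each), a log2 fold change of 0.95 (SE 0.21, adjusted p = 0.000960). Flna, the actin cross-linker filamin A, had 720.5 ± 222 and 389 ± 70.1 CPM, a log2 fold change of -0.89 (SE 0.19, adjusted p = 0.000856). Dnm2, the dynamin that cuts vesicles free, was at 157 ± 24.9 and 196 ± 22.1 CPM (log2 fold change 0.32, adjusted p = 0.174). From E13.5 to E16.5 in nerve, 7 of these 11 rose and 0 fell, where 15.2% of all genes were called higher. From E11.5 to E13.5, 1 was higher and 5 were lower, where 36.6% of all genes were called and 20.2% were called higher. Both counts are by the tabulated grouping. The muscle forms were near absent: Cav3 had no count in the 16 early libraries and 33-68 counts in trigeminal nerve, where muscle markers were also seen, and Cavin4 had at most 47 counts in any library.

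Other endocytic coats are built from clathrin with its AP2 adaptor or from flotillins. Of 13 clathrin, AP2 and flotillin genes, 2 were lower in outer ONL than in olfactory nerve and the other 11 did not pass the test, with a median log2 fold change of 0.10. Of all genes, 22% were called and 11.8% were called lower in that comparison. Cltc, the clathrin heavy chain, and Ap2m1 and Ap2s1, subunits of its adaptor, had log2 fold changes of 0.16, 0.30 and 0.28 (adjusted p = 0.683, 0.131 and 0.362). From E13.5 to E16.5 in nerve, 4 of 13 rose and 1 fell, where 28.8% of all genes were called and 15.2% were called higher. Their median was 0.14, beside a median of 1.20 for the 6 caveolae genes and -0.02 for all genes.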

How the data were processed

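Laser-microdissected nerve pieces were pooled per sample and made into cDNA with the SMART-seq v4 kit and into libraries with Nextera XT. The authors aligned reads to mm10 with TopHat2 (2.1.0) and deposited raw counts of reads per gene made with HTSeq, whose strand and overlap settings are not given in the sources used here. No normalization was applied to the deposited counts. The table held 47729 genes after 1 row without a gene name was left out, 47224 had a symbol in GENCODE M21, and totals ran from 3512627 to 36705535 counts per library. These p-values measure the spread between libraries, some of which share an embryo. Totals and counts cover molecules amplified by PCR without molecular identifiers.

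Libraries were grouped by the group means the study tabulated, which a fit of those means as non-negative mixtures of libraries gave back for the early groups. Those tables were used for grouping alone. Counts were scaled by TMM, filtered with filterByExpr by group and tested with the quasi-likelihood test of edgeR 4.0.16 (R 4.3.3) in 1 fit of 31 libraries, adjusted by Benjamini-Hochberg over 19332 genes and called at 0.05. The standard error is the log2 fold change divided by the square root of F. Ratios to Cav1 used counts plus 0.5 and exact permutation (SciPy 1.17.1). Alternatives were DESeq2 1.42.0, other scalings and filters, groups by label, fewer libraries, a replicate block and each library left out. Same-numbered olfactory nerve and outer ONL libraries had correlated deviations (r = 0.352, 0.282, 0.482 and 0.230 over 12234 genes). With different numbers, nerve 4 with outer ONL 2 (0.364), nerve 1 with 3 (0.178) and nerve 2 with 4 (0.157) did too, and the rest were below 0. No other pair of E16.5 tissues had all of its same-numbered values above 0.1. The numbers were taken to pair these tissues only, from the same data and not from the labels, so they are not shown to match embryos. The block was also fitted to the other pairs of E16.5 tissues as an alternative setting. There it may join libraries that do not belong together.

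The members, marker lists and tests were chosen with earlier results of these data known. The genes named are the 6 members, Cav3 and Cavin4, in each list the genes with the highest mean CPM at E16.5, and for each member the 3 genes with the highest Spearman correlation. Promoter windows came from RefSeq for 5 of 6 members, and windows in an annotated exon are not shown. The summed level of the glial marker list is not reported here.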

Additional observations from a re-analysis of the deposited data

Results flagged for a closer look

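Cavin1 in E16.5 olfactory nerve replicate 3 lay at 162.1 CPM, far above its companions at 106.2-115.7. It was 1 of 36 combinations of gene and group examined, of which chance alone would be predicted to set apart about 5%. The Cavin1 calls against outer ONL and against trigeminal nerve kept their side of the threshold without it.

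The ONL minus nerve difference of Ehd2 changed between E13.5 and E16.5 by -0.7294 on the log2 scale (edgeR quasi-likelihood test of the interaction, adjusted p = 0.0426). The value at E13.5 rests in part on libraries whose labels name other groups. These were the libraries of the ONL group and, in the nerve group, the library labelled E13.5 ONL replicate 1. In 12 of the 20 fits that left out 1 library adjusted p was above 0.05.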

How the results depend on the processing

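Of the values of single genes under another setting, 1049 kept their direction and their side of the threshold, 50 lost the call, 31 gained it and 22 changed sign, and of the counts of calls 168 stayed within 1.5 times and 44 did not. For outer ONL against olfactory nerve, where 2 genes were called, groups by label gave 1, the 2 tissues alone with a replicate block gave 4, and leaving out 1 library gave 1 to 2. For outer ONL against trigeminal nerve, where 3 were called, the E16.5 libraries alone gave 6, the 2 tissues alone 5 with and without the block, and leaving out 1 library 3 to 4. For inner against outer ONL, where 2 were called, groups by label gave 1. The E16.5 libraries alone, the 2 tissues alone and the 2 with the block each gave 4. Where no share of all genes called is given for a fit, its count is not read as a result about the members. For olfactory against trigeminal nerve leaving out 1 library gave 2 to 4 in place of 4, for E16.5 against E13.5 nerve 3 to 5 in place of 5, and for ONL against nerve at E13.5 0 to 1 in place of 1, with 3 by label. By label, E13.5 against E11.5 nerve gave 0 in place of 4. For the change of the ONL minus nerve difference, where 1 was called, no filter and groups by label gave 0, and leaving out 1 library 0 to 2. The cause was not tested in any of these. The replicate block moved no other count by more than 1.5 times.

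Near 0, outer ONL against nerve changed sign with library size scaling alone for Cav1 (-0.0734) and Cav2 (-0.00523) and with the E16.5 libraries alone for Cav1 (-0.0156). Over the left-out libraries it ran from -0.14 to 0.26 for Cav1 and from -0.11 to 0.34 for Cav2, E13.5 against E11.5 nerve ran from -0.27 to 1.34 for Cavin2, and the change of the ONL minus nerve difference from -0.42 to 0.19 for Cavin3. For the last, Cavin1 turned to 0.0997 by label. Of the ratios to Cav1, 12 of 20 passed, and 0 to 12 when 1 library was left out.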
